A study of Mus musculus with 11 samples.

Results

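Perivascular macrophages (PVMs) of the mouse cerebral cortex were compared between postnatal day 10 and adulthood. PVMs were taken as cells with at least 4 UMIs (unique molecular identifiers, 1 per captured transcript) of Pf4, Mrc1, F13a1 and Cbr2 together, at most 4 of the microglia genes Tmem119, P2ry12 and Siglech, and at most 2 of the endothelial genes Cldn5 and Flt1. The cells were thus chosen by the measured UMIs of these 9 genes, so the 9 genes are described and not tested. The rule found 987 PVMs among 24362 kept cells of the 7 libraries compared, 587 juvenile and 400 adult, and the whole series held 50625 kept cells.

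The libraries hold single-cell RNA of dissociated cortex, and the series also has aged mice and mice with experimental autoimmune encephalomyelitis, which are not compared here. The 4 Juvenile libraries came from C57BL/6 mice at P10 and the 3 Adult libraries from C57BL/6 mice of 7 to 11 weeks. Both groups were untreated and carried no labelled allele, the study's methods describe its mice as female unless stated otherwise, and each library pooled the cortex of 6 mice. Tissue of all libraries was cleared of meninges, digested with papain and Liberase, depleted of myelin and dead cells and captured with the 10x 3′ v2 kit, so a library is a pool and not an animal.

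PVMs lie in the space between the wall of larger brain vessels and the astrocyte endfeet, where they take up and degrade material with scavenger and lectin receptors. They are long-lived tissue macrophages that are separate from microglia, which sit within the neural tissue. Macrophages with high Lyve1, a hyaluronan receptor, and macrophages with high MHC class II, which presents peptides to helper T cells, are the usual division of border-associated macrophages.

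PVMs per library numbered 148, 142, 144 and 153 in juvenile and 128, 133 and 139 in adult, with 435848 to 558109 summed UMIs per library and a median of 2616 to 3983 UMIs per cell. No PVM barcode was shared by any pair of libraries. Adult 2 and 3, Juvenile 1 and 2, and Juvenile 3 and 4 differed by a chi-square per degree of freedom of 1.43, 2.66 and 2.701 over PVM genes, against 3.96 to 5.81 for the other pairs of one age. These pairs were therefore summed, which left 2 juvenile and 2 adult units (n = 2 per age). The values below are in counts per 1000000 PVM UMIs (CPM). They are given for each library, in the order of the library numbers, or as means ± SD over the units. A unit of 2 libraries enters as their average, so this SD can hide the spread between libraries. Adult Folr2, for example, stood at 438, 377 and 496 CPM by library and at 437 ± 1.40 CPM over the units.

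The label was checked on genes the rule did not use. Stab1, Folr2, Cd163, Cd209f and Ccl24, all known PVM genes, averaged 1180 ± 83.7, 522 ± 38.2, 353 ± 62.0, 585 ± 23.8 and 652 ± 72.1 CPM in juvenile PVMs. Their means over all other kept cells of the same libraries were 51.1, 4.90, 1.35, 1.51 and 6.96 CPM. The adult PVM means were 1127 ± 35.9, 437 ± 1.40, 387 ± 50.5, 676 ± 82.9 and 692 ± 97.3 CPM, against 47.1, 9.08, 6.84, 12.3 and 18.9 CPM in the other cells. All 5 genes stood far above the other cells at both ages.

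Among the genes that chose the cells, the chemokine Pf4 stood at 6799, 6180, 6984 and 7181 CPM in juvenile and 3257, 3836 and 3458 CPM in adult. The mannose receptor Mrc1 averaged 2791 ± 30.2 CPM in juvenile and 1987 ± 166 CPM in adult. F13a1 and Cbr2 averaged 1040 and 548 CPM in juvenile against 941 and 541 CPM in adult. At the edge of the rule, 10 juvenile and 9 adult cells had exactly 4 UMIs of the PVM genes, and 10 juvenile and 21 adult cells were left out with 3. The endothelial limit left out 17 juvenile and 163 adult cells that met the other limits, and 4 of the juvenile and 55 of the adult ones had exactly 3 endothelial UMIs.

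Of 8142 genes tested, 18 were higher (0.221%) and 66 were lower (0.811%) in juvenile than in adult PVMs at an adjusted p under 0.05. The test was edgeR's quasi-likelihood test over the units with Benjamini-Hochberg adjustment, and 1175 genes had an unadjusted p under 0.05. Genes whose 4 juvenile libraries all lay above, or all below, the 3 adult ones were 1185 (14.6%) and 545 (6.69%). With the endothelial limit raised from 2 to 10 UMIs, which added 134 adult and 7 juvenile cells, 7 genes were called, and 6 of them were among the 84. All 84 kept their direction there, and of the genes named below only Cd209a, Cd74, Vcam1, Ly6a and Col3a1 were still called. Leaving out the unit of Juvenile 1 and 2 left 9 calls, that of Juvenile 3 and 4 left 13, Adult 1 gave 229, and that of Adult 2 and 3 gave 245. Each of these fits, in which the lone unit of an age is assumed to vary like the units of the other age, has fewer samples than the full one. Of the 84 genes, 10 of the higher and 30 of the lower ones had a higher level in the other kept cells of the same libraries than in PVMs. The part of RNA from other cells in these calls was not tested.

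Scavenger and lectin receptors, the uptake receptors by which PVMs are known, held calls in both directions. Of 24 genes tested, 1 rose in juvenile PVMs, 2 fell and 21 did not pass, with a median log2 fold change (juvenile over adult) of -0.26 beside -0.01 for all genes tested. Lyve1 (chr7:110850607-110863239, GRCm38) stood at 1111, 1172, 883 and 796 CPM in juvenile and 414, 289.5 and 315 CPM in adult. The lowest juvenile library lay above the highest adult one, and the log2 fold change was 1.34 ± 0.25 (SE), adjusted p = 0.0351. With the raised endothelial limit it was 1.74 with adjusted p = 0.15, past the threshold no longer. Fewer Lyve1 cells and less Lyve1 RNA per cell cannot be told apart in such sums, and the shares of cells are given further on.

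Cd209a (chr8:3743397-3748984), a C-type lectin related to human DC-SIGN, was listed at 0 in 3 juvenile libraries and at 2.29 CPM in the 4th, against 230.5, 175 and 150.2 CPM in adult. This was 1 UMI in 2040720 juvenile UMIs and 270 UMIs in 1441069 adult UMIs, a ratio of 382 (95% exact counting interval 68.0 to 15157), with adjusted p = 5.43e-05 in the fit. Cd209a was called with the raised endothelial limit too (adjusted p = 0.00862). Its relative Cd209b stood at 24.3, 5.38, 5.86 and 32.1 CPM in juvenile and 71.8, 89.8 and 182 CPM in adult, with no overlap (log2 fold change -2.85 ± 0.36 (SE), adjusted p = 0.00847). Cd209 genes are near copies of one another, so reads could have been split among them in the authors' counting.

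The other receptors of this kind did not pass the test over the units. With the 7 libraries as replicates, 3 of 23 genes of the list were called higher and 8 lower in juvenile, beside 3.52% and 5.09% of all genes. Cd209f differed by -0.34, 95% interval -0.80 to 0.12, and the highest juvenile library (617 CPM) lay just under the lowest adult one (618 CPM). Stab1, a scavenger receptor for modified lipoproteins and hyaluronan, differed by -0.07, 95% interval -0.52 to 0.38 on the log2 scale. Cd163, the haptoglobin-hemoglobin receptor, differed by -0.26, 95% interval -0.74 to 0.22, and Folr2, a folate receptor of resident macrophages, by 0.12, 95% interval -0.32 to 0.56. With the raised endothelial limit the log2 fold changes of Cd163 and Stab1 turned to 0.22 and 0.33. Outside this list, Fcna, a secreted ficolin lectin and not a receptor, passed the test. It stood at 370.3, 346, 328 and 165 CPM in juvenile and 106, 76.3 and 47.2 CPM in adult and rose by 1.77 ± 0.29 (SE), adjusted p = 0.03.

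**Figure D1:**
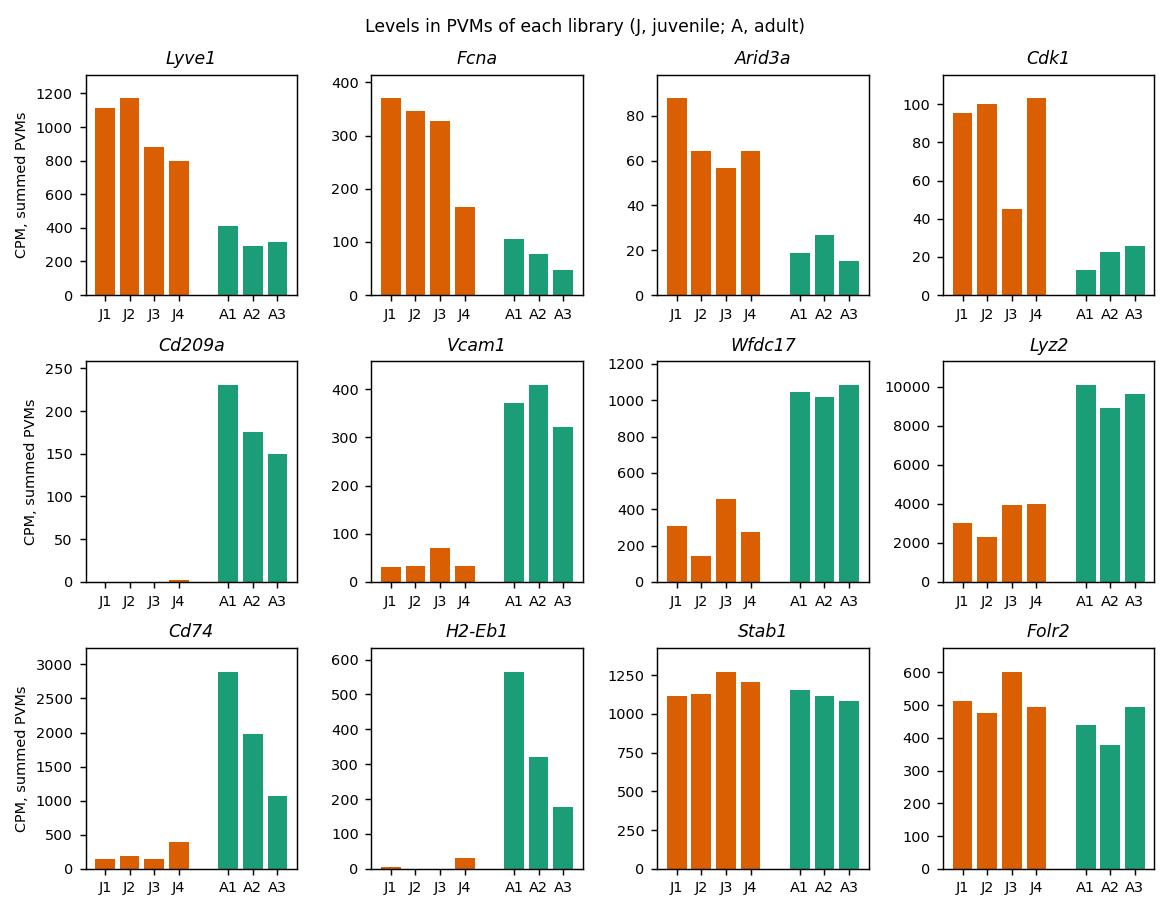
CPM of 12 genes over the summed PVMs of each library, juvenile libraries J1 to J4 in orange and adult libraries A1 to A3 in green, each panel with its own axis from 0. Lyve1, Fcna, Arid3a and Cdk1 are higher in every juvenile library, Cd209a, Vcam1, Wfdc17, Lyz2, Cd74 and H2-Eb1 in every adult library, and the libraries of Stab1 and Folr2 overlap.

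All 6 MHC class II genes tested had a lower level in juvenile PVMs, 2 of them passed the test and the median log2 fold change was -4.43. Cd74, the invariant chain that guides class II molecules through the cell, stood at 146, 192, 139 and 399 CPM in juvenile and 2890, 1982 and 1066 CPM in adult, without overlap (log2 fold change -3.50 ± 0.38 (SE), adjusted p = 0.0105). H2-DMb1, a chain of the chaperone that loads peptides onto class II molecules, averaged 35.7 ± 1.29 CPM in juvenile and 99.6 ± 22.1 CPM in adult and fell by 1.602 ± 0.26 (SE), adjusted p = 0.0201.

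The chains of the class II molecules themselves showed larger differences that did not pass the test. H2-Aa stood at 0, 0, 3.91 and 61.9 CPM in juvenile and 719.8, 572 and 223 CPM in adult (adjusted p = 0.225). H2-Ab1 stood at 0, 1.79, 3.91 and 43.6 CPM in juvenile and 984, 512 and 307 CPM in adult (adjusted p = 0.18). H2-Eb1 stood at 3.74, 0, 0 and 32.1 CPM in juvenile and 565, 321 and 176 CPM in adult (adjusted p = 0.119). For each of the 3 genes Juvenile 4 was the highest juvenile library and Adult 3 the lowest adult one, and the ages did not overlap. With the 7 libraries as replicates the adjusted p was 0.051 for H2-Aa, 0.0289 for H2-Ab1 and 0.0312 for H2-Eb1.

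The promoters of H2-Aa and H2-Eb1 are shown because both genes were lower in every juvenile library, though neither passed the test. They run from 150 bases before to 50 bases after the gene start in RefSeq (GRCm38.p6), at chr17:34287774-34287973 on the minus strand and chr17:34305717-34305916 on the plus strand, and capitals mark CTGATTGG, the Y box known in class II promoters.
H2-Aa: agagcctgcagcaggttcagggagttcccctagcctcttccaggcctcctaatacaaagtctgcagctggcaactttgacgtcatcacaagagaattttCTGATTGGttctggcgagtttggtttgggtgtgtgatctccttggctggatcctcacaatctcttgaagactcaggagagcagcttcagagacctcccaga
H2-Eb1: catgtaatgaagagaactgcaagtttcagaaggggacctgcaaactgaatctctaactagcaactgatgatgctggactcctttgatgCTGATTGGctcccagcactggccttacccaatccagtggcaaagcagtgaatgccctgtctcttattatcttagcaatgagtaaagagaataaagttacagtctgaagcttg
The motif began 51 bases before the start of H2-Aa and 62 before that of H2-Eb1. Searched on both strands, it was in 1346 of 32851 RefSeq promoters of 300 bases (4.10%). A match describes the letters only, and H2-Ab1 had no entry in the table used.

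Class I genes present peptides to cytotoxic T cells in nearly all cells. All 15 genes tested had negative log2 fold changes, with a median of -0.92, and 2 passed over the units. With the 7 libraries as replicates, 8 of 13 were called lower in juvenile, beside 5.09% of all genes. The non-classical H2-Q4 averaged 32.5 ± 4.45 CPM in juvenile and 101 ± 14.8 CPM in adult (log2 fold change -1.77 ± 0.25 (SE), adjusted p = 0.0111), and H2-T23 averaged 109.6 ± 25.3 and 253 ± 24.1 CPM (-1.36 ± 0.22 (SE), adjusted p = 0.0201). Class I genes share long stretches of sequence, so counts of single members are uncertain. Endothelial cells carry class I genes too, and the other kept cells of the adult libraries averaged 177 CPM of H2-T23 against 43.5 CPM in juvenile. Microglia had like age differences, -1.53 for H2-Q4 (adjusted p = 0.00848) and -1.77 for H2-T23 (adjusted p = 0.00492) in edgeR over the units.

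The cell cycle list had 4 calls, all towards juvenile. Of 24 genes tested, 23 had positive log2 fold changes, 4 passed, none fell and the median was 1.48. Cdk1, the kinase that starts mitosis, stood at 95.4, 100.3, 44.9 and 103 CPM in juvenile and 13.2, 22.4 and 25.7 CPM in adult (log2 fold change 1.97 ± 0.33 (SE), adjusted p = 0.0231). Birc5, a subunit of the chromosomal passenger complex, stood at 86.0, 104, 27.3 and 59.7 CPM in juvenile and 9.45, 0 and 15.02 CPM in adult (2.90 ± 0.52 (SE), adjusted p = 0.0464). Neither overlapped between ages. The mitotic cyclins Ccnb1 and Ccnb2 had 62 and 71 UMIs in juvenile and 2 UMIs each in adult PVMs, ratios of 21.9 (exact counting interval 5.81 to 185) and 25.1 (6.69 to 211). These cyclins and Birc5, low in adult, entered the test through their juvenile counts, so they could only be called towards juvenile. Mki67 stood at 50.5, 30.5, 3.91 and 34.4 CPM in juvenile and 3.78, 0 and 10.7 CPM in adult and did not pass (adjusted p = 0.0826), nor did Top2a (1.04, 95% interval 0.08 to 2.01). In both, Juvenile 3 lay within the adult range. The other kept cells of the juvenile libraries averaged 61.4 CPM of Cdk1 and 53.4 CPM of Birc5, against 6.46 and 4.87 CPM in adult, and the part of their RNA in the PVM difference was not tested.

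Chemokines and growth factors mostly did not pass. Of 19 chemokines and cytokines tested 1 fell (median log2 fold change -0.48), and of 17 growth and trophic factors (median log2 fold change 0.00) none was called. Cxcl16, a chemokine and scavenger of oxidized lipids, stood at 43.0, 32.3, 68.4 and 57.4 CPM in juvenile and 111, 150.4 and 94.4 CPM in adult (log2 fold change -1.36 ± 0.27 (SE), adjusted p = 0.0464). The eosinophil chemokine Ccl24 stood at 692, 713, 559 and 642 CPM in juvenile and 623, 799 and 723 CPM in adult and differed by -0.23, 95% interval -0.70 to 0.25. Cd52, a small surface glycoprotein of leukocytes, stood at 133, 104, 137 and 234 CPM in juvenile and 217, 164 and 202 CPM in adult and differed by -0.55, 95% interval -1.09 to -0.02. The monocyte chemokine Ccl8 stood at 95.4, 94.96, 50.8 and 473 CPM in juvenile and 204, 126 and 148 CPM in adult, with Juvenile 4 above every other library. Igf1, a growth factor that macrophages supply to neighbouring cells, stood at 519.9, 541, 445 and 496 CPM in juvenile and 266, 368 and 369 CPM in adult without overlap, but did not pass (log2 fold change 0.51, 95% interval 0.02 to 1.004, adjusted p = 0.329).

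Among adhesion molecules, 1 of 18 tested was called (median log2 fold change -0.14). Vcam1, the ligand of integrin alpha4 beta1, stood at 29.9, 32.3, 70.3 and 32.1 CPM in juvenile and 372, 409 and 322 CPM in adult. Every adult library lay above every juvenile one, and the log2 fold change was -3.28 ± 0.26 (SE), adjusted p = 0.000296, and Vcam1 was called with the raised endothelial limit (adjusted p = 0.0381). The complement list had 1 call in 12 genes (median -0.29), C4b, which stood at 44.1 ± 9.25 CPM in juvenile and 151 ± 32.4 CPM in adult (-1.90 ± 0.25 (SE), adjusted p = 0.00847). In the lipid list of 18 genes (median -0.56), 1 rose and 1 fell. Apoe, a lipid carrier, stood at 39155, 35445, 50543 and 55983 CPM in juvenile and 72700, 69825 and 69763 CPM in adult with no overlap, and did not pass over the units (-0.79 ± 0.23 (SE), adjusted p = 0.154), while it did over the 7 libraries (adjusted p = 0.0039).

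Fabp7, a fatty acid binding protein of radial glia and astrocytes, had 160 UMIs in juvenile and 3 in adult PVMs, a ratio of 37.7 (exact counting interval 12.7 to 185), and the other kept cells of the juvenile libraries averaged 285 CPM. Slc2a1, the glucose carrier of brain endothelium and the only called gene of 15 in the glycolysis list (median -0.39), averaged 28.6 ± 8.09 CPM in juvenile and 127 ± 23.9 CPM in adult PVMs, against 1041 CPM in the other adult cells. The part of RNA from those cells in both differences was not tested.

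No gene passed in the lists for lysosome and cathepsins (30 tested, median log2 fold change -0.35), iron and heme (17, -0.14), interferon-stimulated genes (23, -0.66), macrophage transcription factors (25, -0.12) and immediate early and heat shock genes (26, -0.89). The same held for cytokine and chemokine receptors (26, -0.27), Fc, pattern and phagocytic receptors (25, -0.22), solute carriers and channels (15, -0.19) and translation factors (19, 0.32). The 10 lists without a call held 223 genes tested over the units. Of these lists, 40 genes fell and 8 rose when the 7 libraries were taken as replicates, a fit in which 221 (3.52%) of 6283 genes were higher and 320 (5.09%) lower. Lysosome and cathepsins held 9 of the 40 (29 tested in that fit), immediate early and heat shock genes 8 (26 tested), and translation factors 4 of the 8 that rose (19 tested). Cytosolic ribosomal protein genes had a median of 0.40 over 82 genes, 56 of them higher in every juvenile library (14.6% of all genes tested were), and the protein genes of the mitochondrial genome 0.22 over 8, none called in either group. The median mitochondrial share of UMIs per PVM was 1.34 to 1.47% in juvenile and 0.831 to 0.943% in adult libraries.

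**Figure D2:**
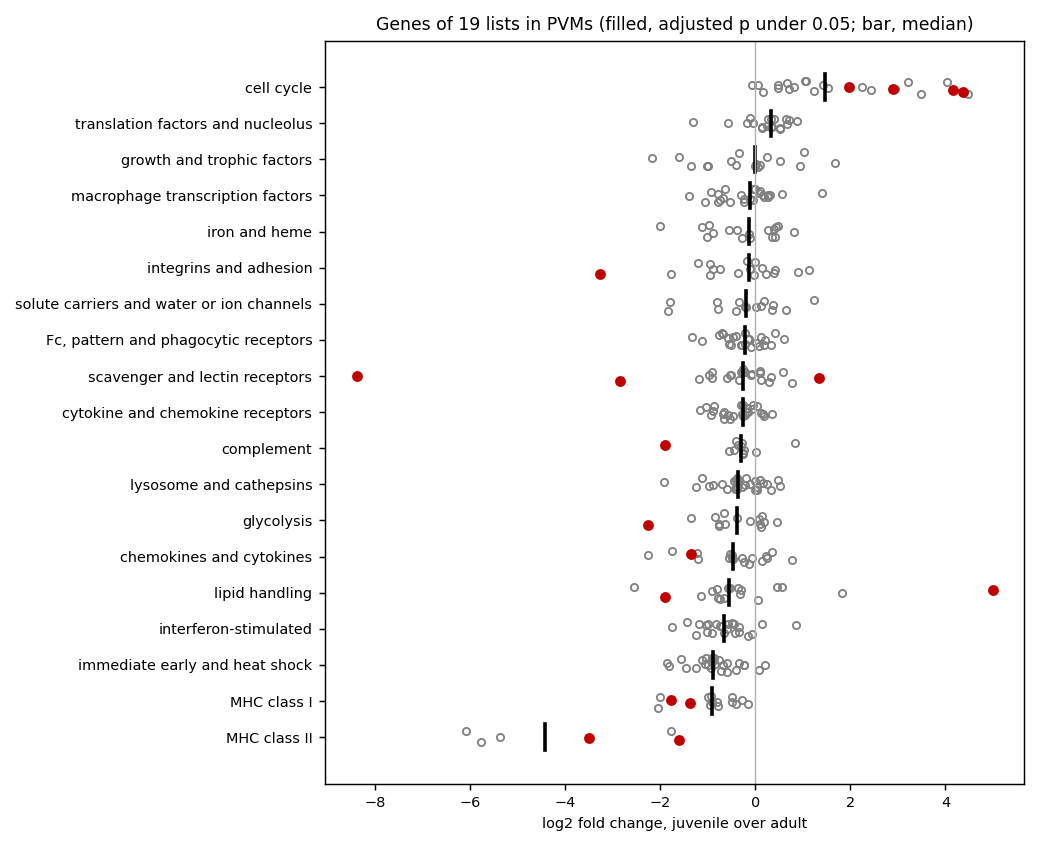
Log2 fold change (juvenile over adult, x axis) of each tested gene in 19 gene lists (rows, ordered by median), with filled red points for genes at an adjusted p under 0.05 and a black bar for the median. MHC class II has the lowest median (-4.43) and the cell cycle the highest (1.48), and 17 filled points lie in 9 of the lists.

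Called genes with at least 50 CPM, no overlap between libraries and a level in PVMs at or above the mean of all other kept cells were ranked. Those with the largest changes outside the lists, besides Fcna (1.77, described above), were as follows. In juvenile, Rcn3, a calcium-binding protein of the secretory pathway, averaged 100.3 ± 14.7 CPM against 19.96 ± 6.502 CPM (2.25 ± 0.31 (SE), adjusted p = 0.00871). Arid3a, a DNA-binding protein known from B cells and embryonic tissue, averaged 68.3 ± 11.1 CPM against 19.9 ± 1.47 CPM (1.62 ± 0.30 (SE), adjusted p = 0.0351). In adult, Wfdc17, a small secreted protein of macrophages, stood at 1047, 1017 and 1083 CPM against 305, 145, 457 and 273 CPM in juvenile (-1.95 ± 0.26 (SE), adjusted p = 0.00847).

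The signalling adapter Blnk averaged 15.1 ± 5.65 CPM in juvenile and 60.0 ± 7.31 CPM in adult (-2.12 ± 0.34 (SE), adjusted p = 0.0195). Rgs1, a regulator of chemokine receptor signalling, averaged 20.7 ± 2.10 and 87.9 ± 6.55 CPM (-2.21 ± 0.27 (SE), adjusted p = 0.00708), and the receptor Lilra5 15.5 ± 1.56 and 59.8 ± 0.984 CPM (-2.06 ± 0.30 (SE), adjusted p = 0.0122). A430104N18Rik and Gm12346, for which no function is given here, were lower in juvenile by the same rule (-2.47, adjusted p = 0.00847 and -2.89, adjusted p = 0.044). Adult PVMs averaged 109 and 85.5 CPM of them, below adult microglia at 158 and 153 CPM. Adult microglia also averaged more Blnk (163 CPM). A430104N18Rik and Gm12346 were lower in juvenile microglia too (edgeR over the units, -2.50, adjusted p = 0.00365 and -3.08, adjusted p = 0.0416). Lyz2, the lysozyme of myeloid cells, was chosen after its values were seen, as the most abundant called gene. It stood at 3037, 2293, 3924 and 3976 CPM in juvenile and 10095, 8931 and 9635 CPM in adult, so that every adult library lay above every juvenile one (-1.69 ± 0.25 (SE), adjusted p = 0.0123).

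The shares of cells with Lyve1 or class II UMIs were compared after each cell was thinned to 1500 UMIs, which left out 20 adult PVMs and 1 juvenile PVM with fewer. Lyve1 was seen in 62.2, 64.1, 55.6 and 55.3% of juvenile and 38.5, 22.7 and 28.9% of adult PVMs. No adult library reached a juvenile one, and the means over units were 59.3 ± 5.45% and 32.1 ± 8.97%. Without thinning, the shares were 77.7, 82.4, 71.5 and 63.4% in juvenile and 51.6, 43.6 and 48.2% in adult. Endothelial cells of the same libraries should lack Lyve1 in brain. They were chosen by Cldn5 and Flt1 UMIs with limits on the PVM and microglia genes, so those with more PVM RNA were left out. They showed Lyve1 in 0 to 0.193% of juvenile and 0 to 0.809% of adult cells. Their median depth before thinning was 5106 to 8321 and 3112 to 4434.5 UMIs, against 2616 to 3358 and 3299 to 3983 UMIs in PVMs.

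At least 2 UMIs of H2-Aa, H2-Ab1 and H2-Eb1 together were seen in 0, 0, 0 and 1.97% of juvenile and 8.55, 6.25 and 5.93% of adult PVMs. Without thinning the shares were 0, 0, 0.694 and 3.27% in juvenile and 14.8, 9.02 and 10.8% in adult PVMs, and 18.6, 8.91 and 6.05% in adult endothelial cells. The unthinned PVM share of Adult 1 was thus below the endothelial one and that of Adult 2 close to it. With at least 5 UMIs and no thinning, the shares were 9.38, 5.26 and 4.32% in adult PVMs and 1.119, 0.716 and 0.462% in adult endothelial cells, with every PVM share above its endothelial one. A count of 0 in the 142 to 148 cells of Juvenile 1 to 3 allows a share of cells with such UMIs at this depth of up to 2.03 to 2.11% (3 counts of the total), and the 95% exact binomial upper bounds were 2.46 to 2.56%. After thinning the endothelial shares were 0 to 0.386% in juvenile and 1.20 to 1.26% in adult, so the share in Juvenile 4 of 3 cells is the only juvenile value above them. Cd209a was seen in none of 586 juvenile PVMs and in 13.7, 9.38 and 11.9% of adult PVMs, against 0.279 to 0.719% of adult endothelial cells.

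Over the 7 libraries the differences in the shares with Lyve1 (29.26 percentage points), class II (-6.41) and Cd209a (-11.63) each had p = 0.0286 in a two-sided exact permutation test, the smallest value that 4 against 3 libraries allow (0.0357 after Benjamini-Hochberg adjustment over 5 shares). Over the 2 against 2 units the smallest p is 0.333, which all 3 shares had, so the units cannot reach 0.05. The library test treats the summed libraries as separate samples. The Cd209a share, though counted among the 5, was not among the shares planned. Each of the 3 shares uses the same UMIs as the gene tests above, so none of these p-values is separate support. The same holds for the cell cycle share below, which uses UMIs of the cell cycle list. Intervals and limits here cover counting error only.

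**Figure D3:**
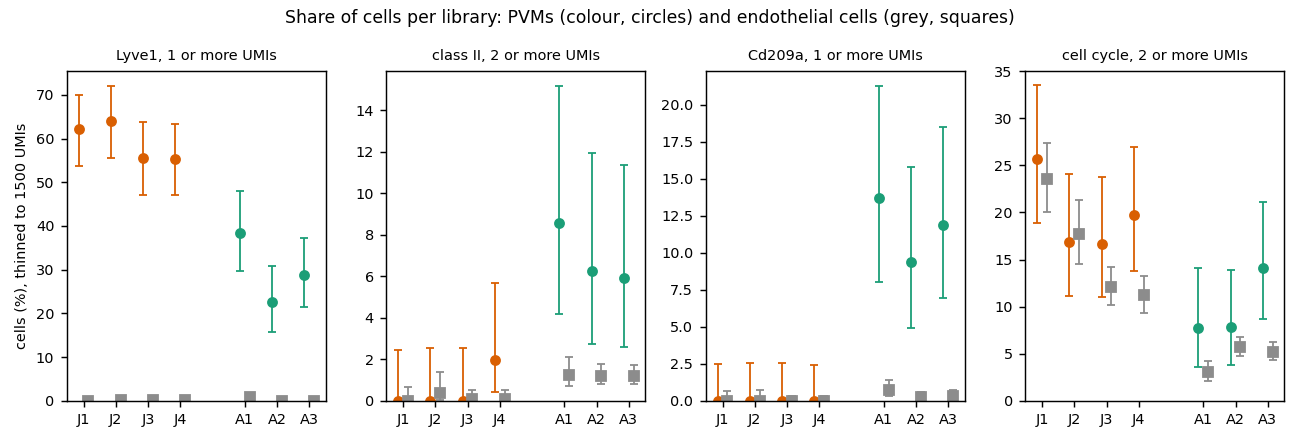
Share of cells (y axis, percent, after thinning to 1500 UMIs) with the named UMIs in each library, for PVMs (circles, juvenile orange and adult green) and endothelial cells (grey squares), with 95% exact binomial intervals. Juvenile PVMs lie at 55.3 to 64.1% for Lyve1 and adult PVMs at 22.7 to 38.5%, while Cd209a is at 0 in every juvenile library.

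The share with cell cycle UMIs depended on the number of UMIs asked for. At least 2 UMIs of the cell cycle list were seen in 25.7, 16.9, 16.7 and 19.7% of juvenile and 7.69, 7.81 and 14.1% of adult thinned PVMs (two-sided exact permutation test over libraries, p = 0.0286, adjusted 0.0357, and 0.333 over units). Endothelial cells had 11.2 to 23.6% in juvenile and 3.06 to 5.68% in adult, and microglia 20.4 to 31.9% and 0.855 to 5.37%. The share in PVMs of Juvenile 2 was below that of its endothelial cells. With at least 3 UMIs the PVM shares were 12.2, 10.6, 5.56 and 8.55% in juvenile and 2.56, 0.781 and 2.96% in adult, and the exact permutation p was 0.0571. Their endothelial cells had 15.4, 11.4, 8.13 and 5.85% in juvenile, above the PVMs of Juvenile 1, 2 and 3. Without thinning, the PVM shares with at least 2 UMIs were 55.4, 47.2, 35.4 and 32.7% in juvenile and 32.0, 27.8 and 34.5% in adult and overlapped, and all 4 juvenile libraries lay below their endothelial cells (70.4, 65.3, 49.9 and 42.4%). Juvenile endothelial cells had higher shares than adult ones and more UMIs per cell than PVMs, so their share is not a background level. The part of free RNA of dividing cells in these shares was not tested.

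PVMs made up 5.53, 5.56, 3.45 and 3.72% of kept cells in juvenile and 4.02, 3.52 and 3.57% in adult libraries, which overlapped (two-sided exact permutation test, p = 0.343). The difference changed sign with the endothelial limit at 10 UMIs. Of PVMs and microglia together, PVMs were 13.1 to 15.2% in juvenile and 29.6 to 41.0% in adult libraries, with 856 to 981 microglia in each juvenile and 191 to 304 in each adult library. The number of cells in the tissue and their recovery cannot be told apart in these shares.

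Class II and Lyve1 UMIs were set side by side in single adult PVMs, as a description. Of 26 adult PVMs with at least 2 class II UMIs after thinning, 1 also had Lyve1 and 2 had Cd209a. Of the other 354 adult PVMs, 112 (31.6%) had Lyve1, against 346 of 583 (59.3%) in juvenile. The 26 cells, 8 to 10 per adult library, held 2576 Cd74 UMIs. The 112 other cells with Lyve1 held 65, and the 242 in which Lyve1 was not seen held 228. Lyve1 not seen after thinning is not absence, since those 242 cells held 124 Lyve1 UMIs before thinning.

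Other genes are given for these class II cells without a test, because the cells are few and come from 3 libraries. Over the sums of each class, Lyz2 stood at 18673 CPM in class II cells. It stood at 8350 and 9067 CPM in other adult PVMs in which Lyve1 was seen and not seen after thinning. Mrc1, one of the genes that chose all the cells, stood at 973 CPM against 2244 and 1917 CPM, and Stab1 at 367 CPM against 1440 and 1044 CPM. Ccl24 was at 73.4 CPM against 746 and 779 CPM, and Cd209f at 55.1 CPM against 1024 and 595 CPM. Class II cells thus had more Lyz2 and less Mrc1, Stab1, Ccl24 and Cd209f than either other class. The other 2 genes of the label check differed less. Cd163 stood at 284 CPM against 458 and 341 CPM, and Folr2, at 367 CPM against 666 and 336 CPM, lay between the other classes. They also had 551 CPM of Ccl8 and 936 CPM of Cd52, against at most 126 and 154 CPM in the others.

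Ccr2, the receptor by which monocytes enter tissue, had 14 UMIs in the 26 adult class II cells, 0 in the 112 with Lyve1 and 11 in the 242 others. The 3 class II cells of Juvenile 4 had 11 Ccr2 UMIs and none of Cd163, Folr2, Cd209f or Ccl24. Cd209a and Vcam1, both lower in juvenile, were lower in class II cells than in the other adult PVMs. Cd209a stood at 82.6 CPM in class II cells and at 196 and 197 CPM in the others, and Vcam1 at 128, 381 and 384 CPM.

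When the age comparison was repeated on PVMs with under 2 class II UMIs, 57 genes were called, 53 of them among the 84. Cd209a (-8.45), Vcam1 (-3.32), Lyz2 (-1.55) and Wfdc17 (-1.94) were still called, with adjusted p of 0.000303, 0.000675, 0.034 and 0.0173 in edgeR. Leaving out class II cells could not have removed the Cd209a and Vcam1 differences, since both genes were lower in those cells. Adult class II cells held 9 Cd209a and 14 Vcam1 UMIs, the other cells with Lyve1 84 and 163, and the remaining cells 174 and 339. The log2 fold change of Cd74 went from -3.50 to -0.55 (adjusted p = 0.237), a loss that the choice of cells fixed, since those removed held most adult Cd74 UMIs. Lyve1 had 1.22 and an adjusted p of 0.0721.

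**Figure D4:**
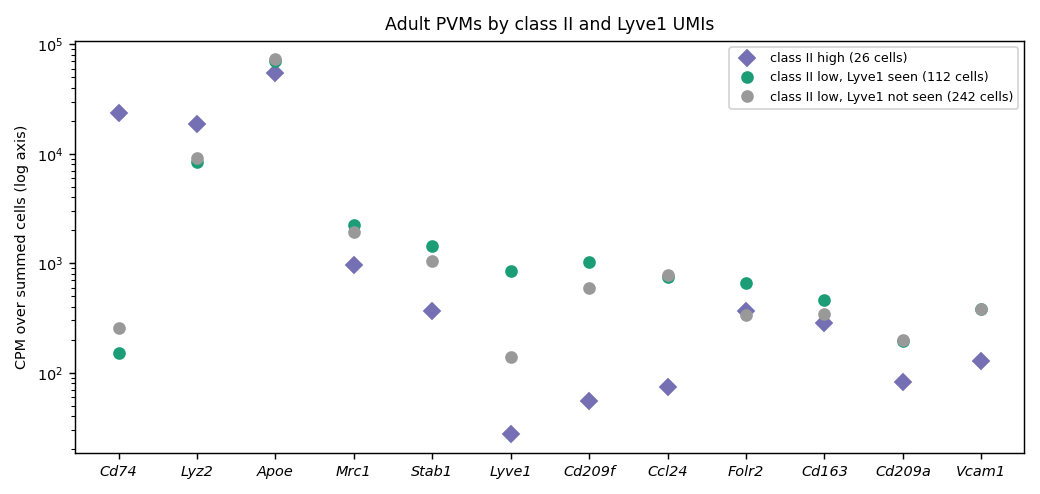
CPM (log axis) of 12 genes over the summed adult PVMs with at least 2 class II UMIs (diamonds, 26 cells). Those with fewer are split by whether Lyve1 was seen (green, 112 cells) or not seen (grey, 242 cells) after thinning. Class II cells are highest in Cd74 and Lyz2 and lowest in Apoe, Mrc1, Stab1, Lyve1, Cd209f, Ccl24, Cd163, Cd209a and Vcam1. For Folr2 they lie between the other classes.

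The age difference in PVMs was set against that in microglia, the other macrophages of the cortex, in a fit of both cell types with the unit as a block. Of 9343 genes, 50 (0.535%) were shifted more towards juvenile in PVMs and 140 (1.5%) less, at an adjusted p under 0.05. Several of the latter were lower in adult than in juvenile microglia and did not pass the test in PVMs. The centromere protein gene Cenpf stood at 84.2, 55.5, 50.8 and 80.3 CPM in juvenile and 58.6, 60.6 and 75.1 CPM in adult PVMs. In microglia Cenpf stood at 37.2, 36.3, 25.7 and 31.6 CPM in juvenile and 2.05, 0 and 1.84 CPM in adult, and the difference between the cell types was -4.34 ± 0.57 (SE), adjusted p = 2.07e-06. Some genes called in PVMs changed alike in microglia and are not in these counts. Besides H2-Q4 and H2-T23, Cxcl16 (-1.35, adjusted p = 0.0116) and H2-DMb1 (-1.03, adjusted p = 0.0178) were lower in juvenile microglia in edgeR over the units.

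Gpx3, a secreted glutathione peroxidase, stood at 196, 145, 141 and 184 CPM in juvenile and 200.2, 213 and 221 CPM in adult PVMs, and at 68.0, 67.6, 45.7 and 39.7 CPM in juvenile and 7.16, 2.23 and 0 CPM in adult microglia (-4.13 ± 0.42 (SE), adjusted p = 9.22e-07). The replication gene 2810417H13Rik, now named Pclaf in RefSeq, was lower in adult in both cell types, with the larger difference in microglia (-3.98 ± 0.69 (SE), adjusted p = 0.000267). It stood at 20.8, 0 and 25.7 CPM in adult PVMs and at 3.07, 0 and 0 CPM in adult microglia, so the size of that difference rests on values near 0. Neither age difference of Apoe passed on its own over the units (edgeR, adjusted p = 0.056 in microglia and 0.154 in PVMs). Apoe had the opposite order of ages in the cell types. It stood at 4770, 5073, 5471 and 5959 CPM in juvenile and 3130, 2351 and 2111 CPM in adult microglia, while every adult PVM library lay above every juvenile one, and the difference was -1.73 ± 0.17 (SE), adjusted p = 6.81e-09.

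Igf1 stood at 37.6, 26.3, 38.6 and 30.8 CPM in juvenile and 5.11, 4.46 and 0 CPM in adult microglia, a larger difference than in PVMs (-2.61 ± 0.41 (SE), adjusted p = 6.44e-05). Aoah, an enzyme that inactivates lipopolysaccharide, stood at 119.7, 109, 105 and 71.1 CPM in juvenile and 134, 105 and 107 CPM in adult PVMs. In microglia it stood at 2.77, 3.76, 6.77 and 2.95 CPM in juvenile and was listed at 0 in adult, so the difference (-6.47 ± 1.65 (SE), adjusted p = 0.026) rests on values near 0. Cd209a was also called (-7.51 ± 1.118 (SE), adjusted p = 2.32e-05), from levels of at most 6.69 CPM in microglia.

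Of the genes shifted towards juvenile in PVMs, Mctp1, a membrane protein with calcium-binding domains, stood at 82.3, 78.8, 62.5 and 82.6 CPM in juvenile and 39.7, 40.4 and 34.3 CPM in adult PVMs and at 8.31, 8.14, 5.08 and 5.48 CPM in juvenile and 10.2, 6.69 and 22.1 CPM in adult microglia (1.86 ± 0.45 (SE), adjusted p = 0.0161). Of the other genes named by the same rule, 3 rest on microglia values near 0. Ccl8 (5.17 ± 0.86 (SE), adjusted p = 0.000137), the cytokine Tslp (2.14 ± 0.56 (SE), adjusted p = 0.0277) and the lectin Clec4n (2.05 ± 0.55 (SE), adjusted p = 0.0393) stood at 0 to 11.2 CPM in microglia of either age, and none passed the test between ages in PVMs (adjusted p = 0.937, 0.669 and 0.329). Rgs5, a pericyte gene (2.58 ± 0.53 (SE), adjusted p = 0.0436), stood at 443, 48.4, 17.6 and 13.8 CPM in juvenile and 28.3, 13.5 and 15.02 CPM in adult PVMs, with Juvenile 1 above every other library. In microglia it stood at 122, 42.3, 14.9 and 12.7 CPM in juvenile and 101, 20.1 and 14.8 CPM in adult.

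**Figure D5:**
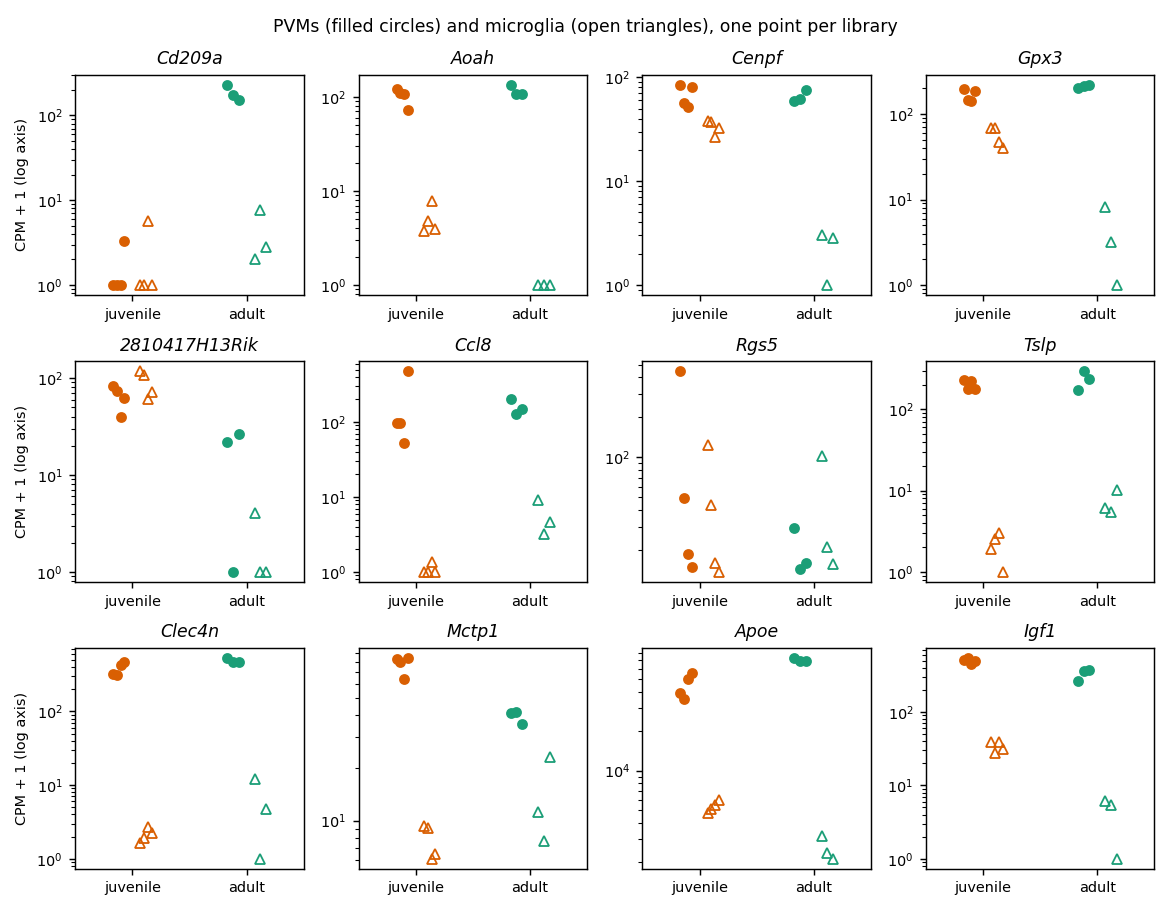
CPM plus 1 (log axis) of 12 genes in PVMs (filled circles) and microglia (open triangles) of each juvenile (orange) and adult (green) library. Cenpf and Aoah overlap between ages in PVMs and are lower in adult than in juvenile microglia, and Apoe has opposite orders in the cell types.

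Genes of other cell types moved with age in the PVM sums. Of 6 endothelial markers tested, 4 were lower in juvenile, at a median difference of -2.26 on the log2 scale, and the 8 markers, 2 of which (Cldn5 and Flt1) chose the cells, summed to 250.1 to 359 CPM in juvenile and 967 to 1174 CPM in adult PVMs. Ly6a stood at 7.48, 8.96, 7.81 and 13.8 CPM in juvenile and 172, 179.6 and 152 CPM in adult PVMs, against 175 and 1491 CPM in the other kept cells. Slco1a4 and Ptprb, an endothelial transporter and phosphatase, were lower too (-2.53, adjusted p = 0.00708 and -2.52, adjusted p = 0.0273). Of 5 fibroblast markers tested, the collagens Col1a1, Col1a2 and Col3a1 were higher in juvenile, and the 6 markers summed to 29.8 to 443 CPM in juvenile and 2.15 to 22.7 CPM in adult.

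Col1a1 stood at 3.74, 73.5, 54.7 and 2.29 CPM and Col3a1 at 3.74, 93.2, 85.9 and 0 CPM in the juvenile libraries, so that each rests on Juvenile 2 and 3. The choroid plexus markers, led by Ttr, summed to 8116 to 33474 CPM in juvenile and 21254 to 63512 CPM in adult, and no PVM had fewer than 6 Ttr UMIs. The median per PVM was 222, 64 and 68 Ttr UMIs in Adult 1, 2 and 3, and 19 to 37 in the juvenile libraries. Red blood cell markers summed to 135 to 14433 CPM in juvenile and 278 to 2373 CPM in adult, and mural markers to 32.1 to 727 CPM in juvenile and 83.7 to 251 CPM in adult. Microglia markers, 3 of which chose the cells, summed to 2508 to 3118 CPM in juvenile and 3308 to 3475 CPM in adult.

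Markers of other immune cells had highest library sums in juvenile and adult PVMs of 68.8 and 148 CPM for monocytes, 19.5 and 65.1 CPM for neutrophils (Ly6g listed at 0), 31.2 and 28.3 CPM for dendritic cells (Clec9a at 0), 7.81 and 18.9 CPM for T and NK cells (Cd3d at 0) and 296 and 227 CPM for B cells. For neural cells they were 250.1 and 138 CPM for astrocytes, 166 and 247 CPM for oligodendrocytes and 135 and 88.8 CPM for neurons. The part of such RNA in the called genes was not tested, apart from the fits with other limits.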

How the data were processed

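Single-cell RNA was captured in 7 Juvenile and Adult libraries, with 4 further libraries of other conditions of the series used only where named. The deposited files hold UMI counts per gene and cell, not normalized, which the authors made, per the submitters' processing notes, with bcl2fastq 2.19.1.403, UMI-tools 0.5.3, STAR 2.5.3a and Subread featureCounts 1.6.1 (strand setting not given in the sources used here). The study's methods name other versions of UMI-tools, STAR and featureCounts. No cell annotation was used. Members and gene lists were chosen with earlier results of these data known.

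Cells with 501 to 5999 genes and under 25% mitochondrial UMIs were kept, and counts of PVMs were summed per library. Samples were grouped by their age label. Libraries that differed little were summed into units, and genes with enough counts (edgeR's filterByExpr) were tested with edgeR 4.0.16 (TMM, quasi-likelihood, Benjamini-Hochberg) in R 4.3.3. Nothing states that libraries came from separate mice, so p-values measure the spread between pools, which may be technical. Microglia, chosen by UMIs of Tmem119, P2ry12 and Siglech with limits on the PVM and endothelial genes, entered a second fit with the unit as a block. Shares were computed in Python 3.11.15 with scipy 1.17.1 after thinning to 1500 UMIs. DESeq2 1.42.0, limma 3.58.1 and Scrublet (scanpy 1.11.5) served alternatives. Doublets were left in otherwise, 1 adult and 10 juvenile PVMs. Counts of the unit comparison were simulated for 7806 genes, 200 of them changed by 1 on the log2 scale, with the same dispersion (0.0337) for all genes. Of the changed genes 16.4% were recovered, and 6.67% of calls were false, so a gene that did not pass may still differ. These figures do not cover other sizes of change or genes with another spread.

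Replicate numbers did not pair libraries across ages: deviations of same-numbered libraries correlated at -0.105, 0.0380 and -0.0959. Named genes were the 10 with the largest changes in each direction among called genes with at least 50 CPM, no overlap of libraries and a level at or above other cells, up to 3 called genes per list and direction with at least 20 CPM, 17 genes chosen by name, and the 5 largest differences from microglia in each direction. Lyz2 and the marker and low-count genes outside this rule were chosen after their values were seen. Limits on endothelial UMIs, the exclusion of class II cells and the omission of whole units were also chosen after seeing the data. The results of 1 gene are not reported here.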

Additional observations from a re-analysis of the deposited data

Results flagged for a closer look

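Among the 4 juvenile libraries, 1 stood apart from the others in 9 of 58 values by Dixon's test, which chance does in about 1 in 20 groups. Juvenile 4 was the highest for Ccl8 (473 CPM), Cd209a (2.29 CPM), H2-Aa (61.9 CPM), H2-Ab1 (43.6 CPM) and H2-Eb1 (32.1 CPM), and 1.97% of its PVMs had at least 2 class II UMIs. The Cd209a value is 1 UMI against 0 in the other libraries, and the class II genes and share are not separate values, since the 3 cells of that share held 24 H2-Aa UMIs against 5 in all other juvenile PVMs compared. Juvenile 3 was the lowest for Cdk1 (44.9 CPM) and the highest for Vcam1 (70.3 CPM). Juvenile 1 was the highest for Rgs5 (443 CPM).

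The age difference in PVMs differed from that in microglia, by an interaction term in edgeR, in 18 of 53 named genes reported here, beside 190 of 9343 genes tested. Of the 18, 10 were named for this difference, so the count is a description. The age difference was lower in PVMs, on the log2 scale, for Cd209a (-7.51), Aoah (-6.47), Top2a (-5.30), Cenpf (-4.34), Gpx3 (-4.13), 2810417H13Rik (-3.98), Cdk1 (-2.73), Igf1 (-2.61), Blnk (-1.74), Apoe (-1.73), Lilra5 (-1.65) and Cd52 (-1.14). The difference was higher in PVMs for Ccl8 (5.17), Rgs5 (2.58), Tslp (2.14), Clec4n (2.05), Mctp1 (1.86) and Arid3a (1.41). For Aoah, Cenpf, Gpx3, 2810417H13Rik, Cdk1 and Igf1, adult microglia stood at 7.16 CPM or lower, so the size of these differences is uncertain.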

How the results depend on the processing

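The count of 84 called genes was 541 with the 7 libraries as replicates, 318 with only Adult 2 and 3 summed, 315 with limma voom and the unit as a random block, 436 without a filter on low counts, 429 with 4 conditions in 1 fit, 127 with at least 8 PVM marker UMIs, 163 without Scrublet doublets and 195 without cells holding other markers. The share of called genes that were higher in juvenile was 21.4% in the fit of units, and 40.9%, 34.0%, 32.4%, 34.2% and 38.2% in the first 5 of these. The count was 7 with up to 10 endothelial UMIs and 5 with endothelial UMIs up to 0.1% of a cell's total, 9 to 245 when a library or unit was left out (a unit left alone in its age was assumed to vary like the others), and 71 by DESeq2. With at least 10 counts in the mean of each age, which leaves out genes near 0 at either age, 71 genes were called, 57 of them among the 84. The cause of these differences was not tested. A planned limit on UMIs of other cell types left no PVM, since Ttr put every cell over it, so Ttr and red blood cell genes were not counted there. Even so, the fit without cells holding other markers left out 114 of the 128 PVMs of Adult 1, against 3 to 16 in each other library. The unit of Adult 1 rests on few cells in that fit.

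With the replicate number as a block over the 7 libraries, 296 genes were called, and Cd209a (-9.62), Cd74 (-3.69), Lyve1 (1.49) and Vcam1 (-3.23) were among them. The numbers are shared names and not a pairing. The count of genes whose age difference differed from microglia was 190, 341 over the 7 libraries and 96 to 268 with a library left out.

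The difference in the Lyve1 share was 25.6 to 33.5 and in the class II share -6.91 to -5.59 percentage points with a library left out. That in the cell cycle share was 7.91 to 11.99, 11.2 without thinning (exact permutation p = 0.171), 6.64 at 1 or more UMIs (p = 0.257) and 7.11 at 3 or more (p = 0.0571). The PVM share of kept cells differed by 0.531 to 1.23 points with a library left out, and by -0.357 with up to 10 endothelial UMIs, -0.141 with the endothelial share limit and -0.0377 when cells were thinned first.

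Of 33 called genes named, 28 lost their call with up to 10 endothelial UMIs, 30 with the endothelial share limit, 28 and 27 without either juvenile unit, and 12 without class II cells. Direction changed only in genes that were not called. With up to 10 endothelial UMIs the log2 fold change was 0.11 for Aoah, 0.015 for Ccl24, 0.030 for Ccl8, 0.22 for Cd163, 0.24 for Cenpf and 0.33 for Stab1. With the endothelial share limit it was 0.25 for Aoah, 0.22 for Ccl24, 0.26 for Ccl8, 0.42 for Cd163, 0.17 for Cd209f, 0.50 for Cenpf, 0.031 for Clec4n, 0.049 for Gpx3, 0.53 for Stab1 and 0.21 for Tslp. Without cells holding other markers, a fit with few cells of Adult 1, it was 0.17 for Ccl24, 0.31 for Ccl8 and 0.20 for Stab1. It was 0.29 for Ccl8 without class II cells and 0.061 for Stab1 when cells were thinned first. With a library or unit left out, Ccl8 ranged from -1.28 to 0.56, Cenpf from -0.21 to 0.074, Rgs5 from -0.48 to 3.46, Stab1 from -0.14 to 0.013 and Tslp from -0.53 to 0.10.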
